A study of Mus musculus with 2 samples.

Results

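The endothelin-HAND circuit of the distal lower jaw was followed through 9 genes, Edn1, Ece1, Ednra, Mef2c, Hand2, Hand1, Gsc, Gata2 and Gata3. They were picked by gene symbol out of 30723 symbols in the deposited tables, and they comprised 21 of 59055 transcripts. RNA came from the mandibular prominence, the facial swelling that forms the lower jaw, of mouse embryos on a mixed CD1 background at stage E11.5. The series held 1 library of Kif3a f/f ; Wnt1-Cre embryos and 1 library of control embryos, each made from 10 pooled embryos. Kif3a encodes a subunit of the kinesin-2 motor that builds primary cilia. Wnt1-Cre deletes the floxed gene in neural crest cells and their descendants, which form most of the jaw mesenchyme, and leaves epithelium, vessels, blood and muscle precursors unrecombined. The controls are named only as such, with no alleles stated. The mutant table is named e11 and the control table e11.5, and each names its own sequencing run, so effects of genotype cannot be told apart from those of the run or of a younger stage.

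Endothelin-1, the product of Edn1, is a peptide secreted by the epithelium, endoderm and core mesoderm of the pharyngeal arches. It is released from its precursor by the protease ECE1 and acts on the receptor EDNRA of neural crest cells, which signals through Gq/11 proteins. In the mouse arch this signal maintains a ventral programme in which MEF2C and DLX factors act upstream of the basic helix-loop-helix factors HAND2 and HAND1 and of the homeobox factor goosecoid (Gsc), and loss of the signal gives the lower jaw features of the upper jaw. GATA2 and GATA3 are zinc finger factors, and mouse embryos without GATA3 have a small mandible.

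Expression is given as FPKM, fragment counts scaled to transcript length and to library size, summed over the transcripts of a gene. The scaling to length lets levels of different genes be set side by side, but only roughly, since a trend with transcript length remained between the libraries. The libraries held about 24500000 fragments in the mutant and 24700000 in the control, as approximated from the deposited coverage. Intervals are exact 95% intervals on these approximate fragments and cover counting error only. With 1 library per group no difference has a replicate check and no p-value exists. Log2 ratios are those of mutant over control after a pseudocount of 1 FPKM. Kif3a itself stood at 5.39 FPKM in the mutant and 11.46 FPKM in the control, 0.471 of the control level (0.431 to 0.514), counted over whole transcripts and with unrecombined cells included. Across 12259 genes with a mean of at least 1 FPKM the median log2 ratio was -0.13, and the ratio went up with transcript length (Spearman correlation across genes 0.407).

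Hand2 was the most abundant gene of the circuit in both libraries and Edn1 the least. In the mutant the order was Hand2 at 67.4 FPKM, Hand1 at 35.6, Gsc at 32.9, Ednra at 19.7, Ece1 at 15.6, Gata3 at 7.54, Gata2 at 2.21, Mef2c at 2.05 and Edn1 at 0.431 FPKM. In the control it was Hand2 at 89.9 FPKM, Gsc at 51.2, Hand1 at 26.6, Ednra at 23.7, Ece1 at 16.1, Gata3 at 4.91, Mef2c at 3.05, Gata2 at 1.80 and Edn1 at 0.413 FPKM. Hand1 and Gsc thus exchanged places, as did Gata2 and Mef2c. In the mutant the counting intervals of both exchanged pairs overlapped, at 33.9 to 37.2 FPKM for Hand1 against 30.9 to 35.0 FPKM for Gsc, and at 1.91 to 2.54 FPKM for Gata2 against 1.84 to 2.28 FPKM for Mef2c. In the control neither pair overlapped. The genes of each pair also differ in length, and these intervals do not cover the trend with transcript length. Levels of Hand2 exceeded those of 92.1% of the genes over the filter in the mutant and 93.3% in the control.

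**Figure D1:**
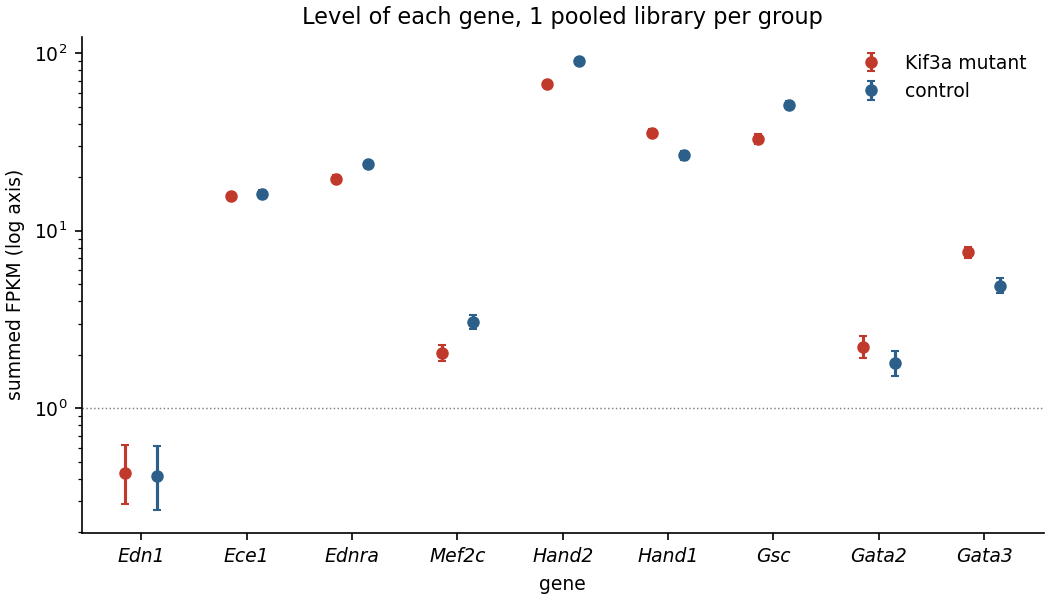
Summed FPKM of the 9 genes on a log axis, with the Kif3a mutant library left of the control library for each gene, 1 library per group. Bars are 95% counting intervals and the dotted line marks 1 FPKM. Hand2 is highest, at 67.4 and 89.9 FPKM, and Edn1 lies below 1 FPKM in both.

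No gene of the circuit differed 2-fold between the libraries. Of the 9 genes, 8 had a mean of at least 1 FPKM, and 0 of these 8 were at least 2-fold higher or lower, against 2.13% of all genes (0.767% higher and 1.36% lower). Of the 8 genes, 4 lay below the median gene and 4 above it, the same even split that all genes have by definition. Gsc, Hand2, Mef2c and Ednra lay below the median gene, and Gata3, Hand1, Gata2 and Ece1 above it. Their log2 ratios ran between -0.62 for Gsc and 0.53 for Gata3, with a median of -0.15, beside -0.13 for all genes. The middle 50.0% of all genes on this scale ran between -0.30 and 0.06, and 6 of the 8 circuit genes, all except Ednra and Ece1, lay outside it. Over all genes, 94 were at least 2-fold higher and 167 at least 2-fold lower. That split became 132 against 129 once the median gene was set to 0, 129 against 140 under 75th percentile scaling, 195 against 128 under TPM-like scaling, 129 against 106 without the length trend and 129 against 141 from coverage.

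**Figure D2:**
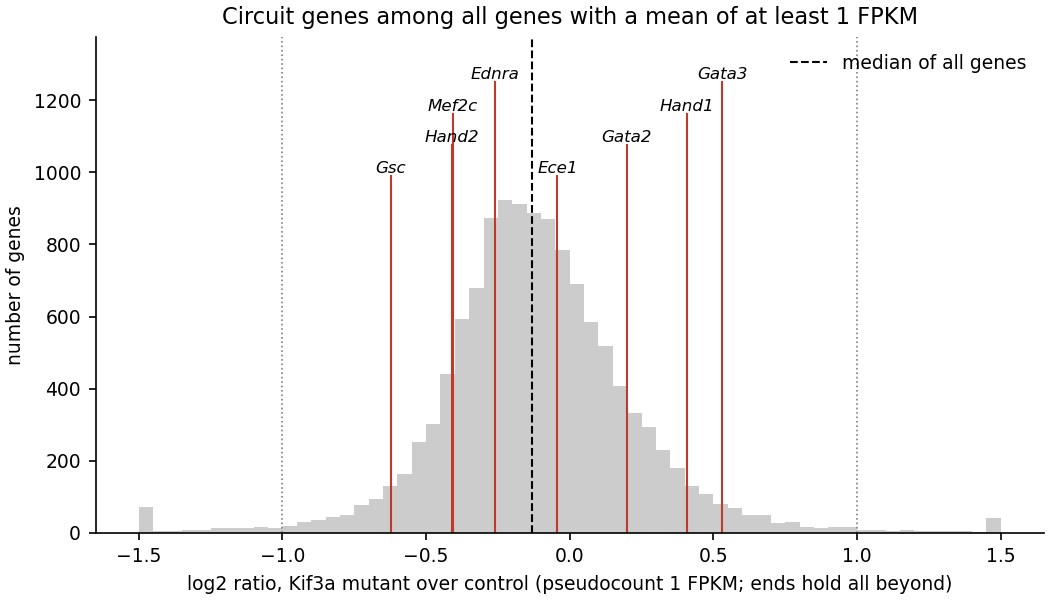
Histogram of the log2 ratio of mutant over control for the 12259 genes with a mean of at least 1 FPKM, with the 8 circuit genes over that filter marked by red lines. The dashed line is the median of all genes, at -0.13, and the dotted lines mark 2-fold; all 8 genes lie between them, Gsc lowest at -0.62 and Gata3 highest at 0.53.

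The protease gene differed little and the receptor gene was modestly lower as deposited, while the ligand gene was too low to judge. Edn1, on chromosome 13 (42301270 to 42307989, plus strand, GRCm38), stood at 0.431 FPKM in the mutant and 0.413 FPKM in the control, on about 28 and 25 fragments. It was the only circuit gene below the filter, and its ratio of 1.04 had an interval of 0.587 to 1.87, so a difference in either direction was not detectable at this depth. Ece1, the gene of the converting protease, on chromosome 4 (137862237 to 137965229, plus strand), stood at 15.6 FPKM in the mutant and 16.1 FPKM in the control, a ratio of 0.969 (0.904 to 1.04). Its ratio was the closest to an equal level among the circuit genes over the filter. Ednra, the receptor gene, on chromosome 8 (77663029 to 77724452, minus strand), stood at 19.7 FPKM in the mutant and 23.7 FPKM in the control, a ratio of 0.828 (0.778 to 0.881). Its log2 ratio was -0.26, with 30.5% of genes lower. With TPM-like scaling it was -0.006, where the median of all genes was 0.11. The median gene had a ratio of 0.913 after the pseudocount, which the Ednra interval, taken without a pseudocount, does not include. That interval covers counting error only and not the spread between genes. A transcript listed as AK135599, with no strand stated, spans the whole Ednra locus at 0.225 FPKM in the mutant and 0.405 FPKM in the control, low beside Ednra itself.

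Minor transcripts of Ece1 and Ednra made up more of each gene in the mutant. The main Ece1 transcript, of 4816 bases, stood at 11.3 FPKM in the mutant and 12.9 FPKM in the control, and made up 72.3% and 80.2% of the gene. A transcript of 2134 bases that starts further downstream, at 137920789, stood at 1.80 FPKM in the mutant and 1.03 FPKM in the control, or 11.53% and 6.39% of the gene. The main Ednra transcript, of 3643 bases, stood at 18.9 FPKM in the mutant and 23.4 FPKM in the control. The Ednra transcript of 3135 bases stood at 0.803 FPKM in the mutant and 0.385 FPKM in the control, 4.09% and 1.62% of the gene. The division of fragments between overlapping transcripts is estimated by the authors' tool and carries more error than the sum.

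**Figure D3:**
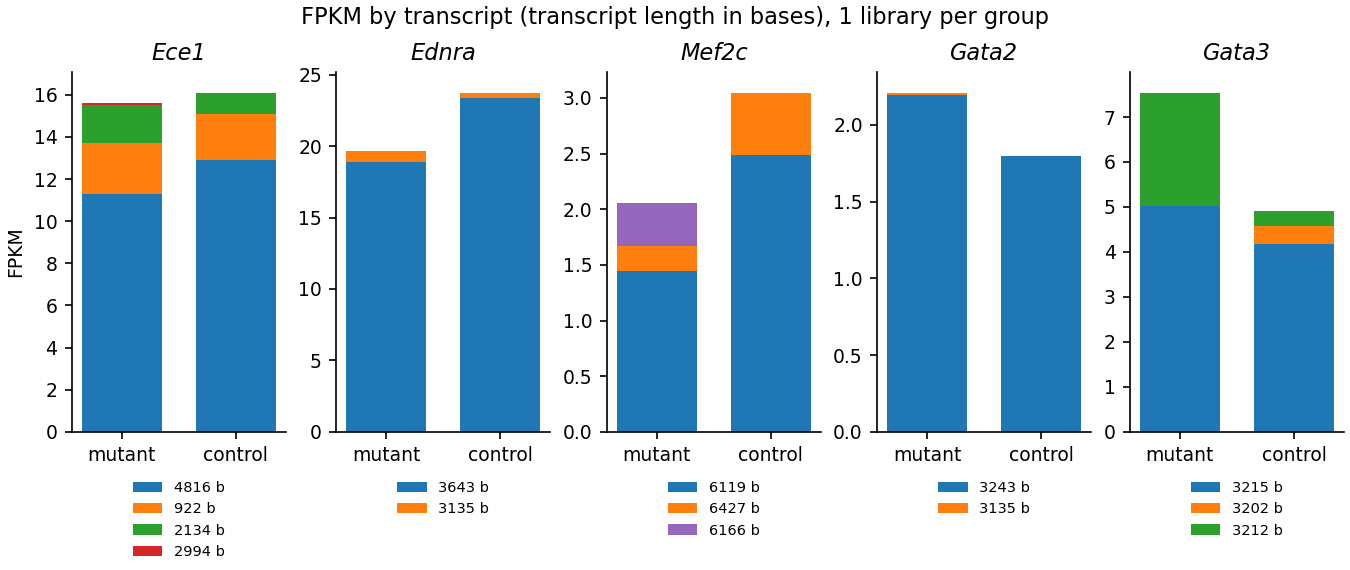
FPKM of each transcript of the 5 circuit genes with more than 1 transcript, stacked, with the mutant bar left of the control bar; colours stand for transcripts, named by length in bases where they reach 0.01 FPKM. The Mef2c transcript of 6166 bases and most of the Gata3 transcript of 3212 bases appear on the mutant side, and 1 transcript makes up nearly all of Ednra and Gata2.

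Mef2c, whose product is a MADS-box factor of the arch that also acts in muscle and endothelium, lies on chromosome 13 (83504034 to 83667079, plus strand). It stood at 2.05 FPKM in the mutant and 3.05 FPKM in the control, a ratio of 0.674 (0.585 to 0.775) on about 346 and 477 fragments. Only 14.1% of genes had a lower log2 ratio than its -0.41. Genes of like length had a median log2 ratio of 0.06, since long transcripts ran higher in the mutant, and the log2 ratio of Mef2c with this trend removed was -0.46. The main transcript, of 6119 bases, stood at 1.45 FPKM in the mutant and 2.49 FPKM in the control. The longest one, of 6427 bases and starting furthest upstream, stood at 0.224 FPKM in the mutant and 0.558 FPKM in the control. A transcript of 6166 bases that starts at 83573618 went the other way, at 0.384 FPKM in the mutant and 6.48e-08 FPKM in the control. The other 3 Mef2c transcripts were listed below 0.001 FPKM in both libraries.

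Markers of the other tissues that express Mef2c were lower in the mutant as well. Of 8 skeletal muscle markers 6 passed the filter, 5 past 2-fold on the lower side. Myod1, Myog and Tnni1 were below 1 FPKM in the mutant and passed this filter on the mean only through the control. The count of lower genes is thus partly set by the filter. The summed level of the whole list, which does not depend on the filter, was 8.94 FPKM in the mutant and 37.7 FPKM in the control, with none at 0. All 10 endothelial markers passed the filter, 0 were 2-fold lower, 9 lay below the median gene, and their sum was 69.7 FPKM in the mutant and 102 FPKM in the control, again with none at 0. The part of these tissues in the Mef2c value was not tested. In such pooled tissue fewer cells of a type and less RNA per cell cannot be told apart.

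The HAND genes differed in opposite directions. Hand2, required for the distal jaw, on chromosome 8 (57320983 to 57324517, plus strand), stood at 67.4 FPKM in the mutant and 89.9 FPKM in the control, a ratio of 0.750 (0.720 to 0.782) on about 4110 and 5078 fragments. Hand1, whose product marks the most distal cap of the arch, on chromosome 11 (57828713 to 57832147, minus strand), stood at 35.6 FPKM in the mutant and 26.6 FPKM in the control, a ratio of 1.34 (1.24 to 1.44) on about 1787 and 1224 fragments. The log2 ratio was -0.41 for Hand2, with 13.8% of genes lower, and 0.41 for Hand1, above 94.5% of genes. Each gene has 1 transcript in the tables, so neither value depends on a division between transcripts. Their lengths are alike, 2235 bases for Hand2 and 1898 bases for Hand1, and genes of such lengths had median log2 ratios of -0.17 and -0.21. Hand1 stood at 0.527 of the Hand2 level in the mutant library and at 0.295 in the control library. This within-library ratio, which scaling of whole libraries cannot alter, was 1.79 times as high in the mutant (1.64 to 1.94), and 1.80 times when taken from coverage. The ratio of Hand1 to Ednra was likewise 1.62 times as high (1.47 to 1.78), whereas that of Hand2 to Ednra was 0.906 times as high (0.841 to 0.976). The length trend can alter such ratios, as Ednra is longer, at 3643 bases. With the trend removed the log2 ratios were -0.24 for Hand2, -0.18 for Ednra and 0.61 for Hand1. Hand2 and Ednra thus lay closer together than as deposited, and Hand1 and Ednra further apart.

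The stretch before the Hand2 start is shown because it holds 4 of the 6 motifs searched among the circuit genes. It is the 250 bases upstream of the annotated start, chr8:57320733-57320982 on the plus strand of GRCm38, from RefSeq, and the start is that of the transcript in the deposited tables. Capitals mark, 5′ to 3′, the E-box variant CATCTG, the GATA-type motif TGATAA, and the homeodomain-type motif TAATTA overlapping the reverse complement of AGATAA.
Hand2: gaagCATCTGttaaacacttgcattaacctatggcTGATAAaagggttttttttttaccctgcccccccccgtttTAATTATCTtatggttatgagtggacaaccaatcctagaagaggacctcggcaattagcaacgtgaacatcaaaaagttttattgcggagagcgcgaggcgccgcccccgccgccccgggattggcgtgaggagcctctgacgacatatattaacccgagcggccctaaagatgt
Both strands were searched. CATCTG lies 246 to 241 bases before the start, TGATAA 215 to 210 bases, TAATTA 175 to 170 bases and the AGATAA match 172 to 167 bases before it. CATCTG was present in 14.5% of the 32817 windows of this length before all annotated starts, TGATAA in 7.95%, AGATAA in 9.99% and TAATTA in 4.85%. A match is a description of the letters and not evidence of a bound site. RefSeq windows were at hand for 8 of the 9 genes, all except Hand1, with 14 windows in all.

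Gsc, on chromosome 12 (104471209 to 104473236, minus strand), was the lowest of the circuit. It stood at 32.9 FPKM in the mutant and 51.2 FPKM in the control, a ratio of 0.642 (0.593 to 0.696) on about 1013 and 1509 fragments. Only 4.64% of genes had a lower log2 ratio than its -0.62. At 1174 bases its transcript is the shortest main transcript of the circuit, genes of that length had a median log2 ratio of -0.26, and -0.36 remained for Gsc with the trend removed. Relative to Hand2, Gsc stood at 0.488 of the Hand2 level in the mutant and 0.570 in the control, 0.856 times as high (0.782 to 0.937). With the length trend removed, the log2 ratios of Gsc and Hand2, -0.36 and -0.24, lay closer together than the -0.62 and -0.41 as deposited. CATCTG occurred in 3 of the 14 windows of circuit genes, before Hand2, Gsc and a Mef2c start at 83573607, beside 14.5% of all windows. The Gsc window, chr12:104473237-104473486 on the minus strand of GRCm38, is shown for comparison with that of Hand2, with CATCTG in capitals 210 to 205 bases before the start.
Gsc: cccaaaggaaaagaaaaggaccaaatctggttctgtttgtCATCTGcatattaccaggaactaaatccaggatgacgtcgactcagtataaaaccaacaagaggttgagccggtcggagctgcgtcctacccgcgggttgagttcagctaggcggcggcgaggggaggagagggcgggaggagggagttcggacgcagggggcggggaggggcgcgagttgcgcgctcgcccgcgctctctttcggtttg

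The GATA genes were higher in the mutant. Gata3, on chromosome 2 (9857078 to 9878600, minus strand), stood at 7.54 FPKM in the mutant and 4.91 FPKM in the control, a ratio of 1.54 (1.35 to 1.74) on about 651 and 397 fragments. Its log2 ratio of 0.53 was the highest of the circuit and exceeded that of 96.7% of genes. Gata2, on chromosome 6 (88193891 to 88207032, plus strand), stood at 2.21 FPKM in the mutant and 1.80 FPKM in the control, a ratio of 1.23 on about 195 and 148 fragments. Its interval, 0.987 to 1.53 without a pseudocount, includes an equal level but not the 0.913 of the median gene after the pseudocount. Gata3 stood at 0.112 of the Hand2 level in the mutant and 0.0547 in the control, so this within-library ratio was 2.05 times as high in the mutant (1.79 to 2.34). The ratio of Gata2 to Gata3 was 0.801 times as high, with an interval of 0.621 to 1.03 that includes an equal ratio.

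The 3 Gata3 transcripts, of 3215, 3212 and 3202 bases, share nearly all their extent. The one of 3215 bases stood at 5.03 FPKM in the mutant and 4.17 FPKM in the control, the one of 3212 bases at 2.51 FPKM in the mutant and 0.339 FPKM in the control, and the one of 3202 bases at 5.09e-05 FPKM in the mutant and 0.409 FPKM in the control. In absolute FPKM the transcript of 3212 bases thus differed most between the libraries, and as a ratio the one of 3202 bases did. The division of fragments between transcripts so alike is an estimate and carries more error than the sum. The log2 ratio of the most abundant transcript alone was 0.22. Gata2 has 2 starts that lie apart, and nearly all its signal came from the downstream one in both libraries. The transcript from 88198664 stood at 2.20 FPKM in the mutant and 1.80 FPKM in the control, and that from 88193891 at 0.0136 FPKM in the mutant and 0.000262 FPKM in the control. The upstream and downstream Gata2 windows, chr6:88193641-88193890 and chr6:88198414-88198663 on the plus strand, are shown to set the start with little estimated signal beside the main one. The Gata3 window, chr2:9878601-9878850 on the minus strand, follows them. None of the 6 motifs occurs in any of them, so they hold no capitals.
Gata2 upstream: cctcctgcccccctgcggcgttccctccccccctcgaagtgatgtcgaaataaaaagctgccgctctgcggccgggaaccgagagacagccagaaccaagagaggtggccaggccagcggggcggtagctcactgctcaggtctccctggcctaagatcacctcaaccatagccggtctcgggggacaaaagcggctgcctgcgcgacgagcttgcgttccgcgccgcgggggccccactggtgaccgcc
Gata2 downstream: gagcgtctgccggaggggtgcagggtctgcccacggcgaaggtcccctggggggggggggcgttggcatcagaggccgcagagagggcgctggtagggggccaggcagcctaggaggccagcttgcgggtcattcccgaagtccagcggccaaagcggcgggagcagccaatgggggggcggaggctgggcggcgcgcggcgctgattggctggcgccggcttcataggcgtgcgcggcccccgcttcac
Gata3: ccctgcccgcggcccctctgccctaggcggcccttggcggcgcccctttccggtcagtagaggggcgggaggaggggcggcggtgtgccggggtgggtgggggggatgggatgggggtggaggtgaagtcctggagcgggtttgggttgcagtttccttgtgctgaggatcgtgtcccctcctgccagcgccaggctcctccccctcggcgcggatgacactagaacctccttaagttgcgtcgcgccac
The upstream Gata2 window is 67.2% G or C, the downstream one 74.0% and the Gata3 window 70.0%, against 49.2% for Hand2, 59.2% for Gsc and a median of 52.4% over all windows. The remaining motifs, GACCACCCA of the GLI type and the MEF2 consensus, occurred in 0 of the 14 windows of circuit genes and in 0.225% and 2.92% of all windows.

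Outside the mesenchyme, Gata2 and Gata3 are also expressed in epithelium, blood and neurons. Of 11 oral epithelial markers, all over the filter, 9 lay above the median gene, and their sum was 221 FPKM in the mutant and 186 FPKM in the control, with none at 0. The 9 first arch mesenchyme markers summed to 592 FPKM in the mutant and 621 FPKM in the control, with a median log2 ratio of 0.00. Erythroid markers ran the other way to the GATA genes, with 8 of 9 at least 2-fold lower and sums of 5656 FPKM in the mutant and 22179 FPKM in the control, none at 0, and macrophage markers summed to 10.2 and 18.3 FPKM, none at 0. Of 8 neuronal markers 4 passed the filter, Nefl and Th only through their control values. Of these 4, 3 lay below the median gene, and the median log2 ratio of the 4 was -0.32. The neuronal list summed to 18.2 FPKM in the mutant and 18.0 FPKM in the control, with Isl1 at 9.62 FPKM in the mutant and 5.53 FPKM in the control and Tubb3 at 6.29 FPKM in the mutant and 8.92 FPKM in the control. Dbh, a marker of sympathetic neurons that express HAND2 and GATA factors, was listed at 0 in both. Phox2a was listed at 0 in the control. Only 1 of 8 heart markers, Nkx2-5, passed the filter, with a sum of 2.95 FPKM in the mutant and 4.19 FPKM in the control; Myl2 was listed at 0 in both libraries and Nppa in the control. The part of epithelium and of blood cells in the GATA values was not tested.

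The rest of the endothelin system was lower relative to the median gene. Its 5 members over the filter, out of 6, all lay below the median gene, with a median log2 ratio of -0.57. Ednrb is among the 5 only through its control value, so its place on the lower side is partly set by the filter. Of the 5, 1 was at least 2-fold lower. That gene, Mme, encodes neprilysin, a protease that degrades endothelins among other peptides, and stood at 4.20 FPKM in the mutant and 11.2 FPKM in the control, a ratio of 0.375 (0.337 to 0.416). Edn3, the endothelin of the neural crest pigment and enteric lineages, stood at 5.05 FPKM in the mutant and 8.60 FPKM in the control, above Edn1 in each library. Ece2, a relative of ECE1, was the most abundant by summed FPKM, at 12.3 FPKM in the mutant and 18.7 FPKM in the control. Its most abundant transcript has only 984 bases, against 4816 bases for the main Ece1 transcript. The part of the Ece2 sum that comes from longer transcripts was not examined. The receptor Ednrb stood at 0.818 FPKM in the mutant and 1.58 FPKM in the control, though its most abundant transcript taken alone was above the median gene. Furin, which makes the first cut in the endothelin precursor, had a log2 ratio of -0.27.

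Downstream of the receptor, the G proteins and phospholipases differed little. Of 8 listed, 6 passed the filter, 0 differed 2-fold and their median log2 ratio was -0.05. Gna11 was the most abundant by mean level, at 24.8 FPKM in the mutant and 29.8 FPKM in the control, and Gna12 stood at 24.7 FPKM in the mutant and 29.0 FPKM in the control. Gnaq, the close relative of Gna11 and named outside the rule, stood at 18.7 FPKM in the mutant and 17.5 FPKM in the control. The phospholipase gene Plcb3 was at 12.7 FPKM in the mutant and 14.1 FPKM in the control, and Plcb4 at 4.16 FPKM in the mutant and 3.70 FPKM in the control. Of the other MEF2 genes and the class IIa deacetylases that bind MEF2 proteins, 6 of 7 passed the filter, 0 differed 2-fold and the median was -0.20. The most abundant of these, Hdac7, had a log2 ratio of -0.21, Hdac9 of -0.32, Mef2a of 0.28 and Hdac4 of 0.22. Plcb3 and Hdac7 were above the median gene in 1 setting of 8 and below it in 7. The G protein list had its median above the median gene in 7 settings and below it in 1, and the MEF2 list the reverse.

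**Figure D4:**
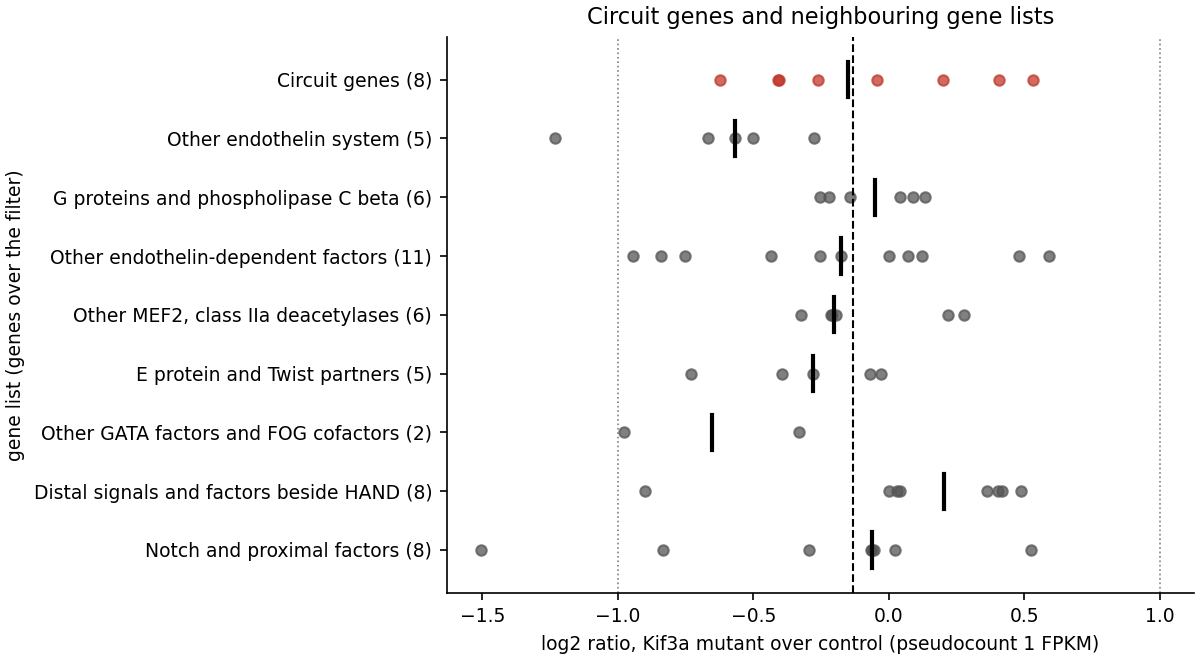
Log2 ratio of mutant over control for the 8 circuit genes over the filter (red) and for the genes of 8 related lists (grey), with the number of genes over the filter in parentheses. Thick bars are list medians, the dashed line is the median of all genes and the dotted lines mark 2-fold. All 5 other endothelin genes lie left of the dashed line, with Ednrb over the filter only through its control value. Of the 8 genes listed as distal signals and factors, 7 lie right of the dashed line.

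Other factors known to depend on endothelin lay on both sides of the median gene. All 11 passed the filter, 0 differed 2-fold after the pseudocount, 5 lay above the median gene and 6 below, and their median log2 ratio was -0.18, below the median gene in 6 settings of 8 and above it in 2. Nkx3-2, a factor of the jaw joint, had a log2 ratio of -0.94, at 1.14 FPKM in the mutant and 3.12 FPKM in the control, which without the pseudocount is 2.74-fold lower (1.92 to 3.96). Dlx4 had -0.75, at 1.91 FPKM in the mutant and 3.90 FPKM in the control, 2.05-fold lower without the pseudocount (1.57 to 2.69), and was above the median gene in 1 setting of 8. The coactivator gene Cited1 had -0.84. Gbx2, named outside the rule as the highest, had 0.59, at 3.99 FPKM in the mutant and 2.31 FPKM in the control. The most abundant, Barx1, stood at 122 FPKM in the mutant and 165 FPKM in the control.

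The E protein and Twist genes, whose products pair with HAND factors, had a median log2 ratio of -0.28, and 0 of 5 differed 2-fold. Twist2 stood at 33.0 FPKM in the mutant and 55.4 FPKM in the control, Twist1 at 137 FPKM in the mutant and 181 FPKM in the control, Tcf3 at 102 FPKM in the mutant and 124 FPKM in the control, and Tcf12 at 102 FPKM in the mutant and 107 FPKM in the control. The other GATA and FOG genes were mostly low, with 2 of 6 over the filter. Gata1, a blood factor, stood at 1.73 FPKM in the mutant and 4.36 FPKM in the control, 2.53-fold lower without the pseudocount, and Zfpm1, which encodes a GATA cofactor, at 6.36 FPKM in the mutant and 8.26 FPKM in the control.

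Genes listed as distal signals and factors beside HAND were higher relative to the median gene in 7 of 8 cases, with a median log2 ratio of 0.20, and 0 of the 8 differed 2-fold. Not all of this list is distal, since it includes Fgf8, a signal of the more proximal oral epithelium, with a log2 ratio of 0.40. Tbx3 had a log2 ratio of 0.49 and Msx2 of 0.42, the highest of the list. Tbx2, the most abundant by mean level, stood at 52.7 FPKM in the mutant and 51.5 FPKM in the control. Among the Notch and proximal factors that act against endothelin, 1 of 8 was at least 2-fold lower, Pou3f3, at 1.49 FPKM in the mutant and 6.06 FPKM in the control. Hey1, a Notch target, had a log2 ratio of -0.83 and Notch2 of 0.52, or 0.21 for Notch2 with the length trend removed, Jag1, a Notch ligand, had -0.07, and the most abundant, Nr2f1, had -0.30. The median of this list, -0.06, lay above the median gene in 7 settings of 8 and below it in 1. All of these lists were written down with earlier results of the same libraries known.

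The sides taken by 7 of the 8 circuit genes over the filter were the same under every setting compared, though several settings could hardly change a side. Gsc, Hand2, Mef2c and Ednra lay below the median gene, and Hand1, Gata2 and Gata3 above it, under all 8 settings compared (as deposited, pseudocounts of 0.1 and 5, 75th percentile and TPM-like scaling, length trend removed, most abundant transcript alone, and coverage). Ece1 lay below it with the length trend removed and with its most abundant transcript alone, and above it otherwise. The 75th percentile and TPM-like settings rescale whole libraries, and coverage follows FPKM closely, so these 3 could hardly move a gene across the median gene. Hand1, Hand2 and Gsc have 1 transcript each, so their own values stay as deposited with the most abundant transcript alone. Relative to the median gene, Hand1 ranged from 0.45 to 0.61, Hand2 from -0.30 to -0.24, Gsc from -0.54 to -0.36, Gata3 from 0.37 to 0.76, Gata2 from 0.17 to 0.43, Ednra from -0.18 to -0.12 and Mef2c from -0.46 to -0.10. The log2 ratio of Mef2c, a gene of low level, was -0.19 with a pseudocount of 5 and -0.55 with a pseudocount of 0.1.

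**Figure D5:**
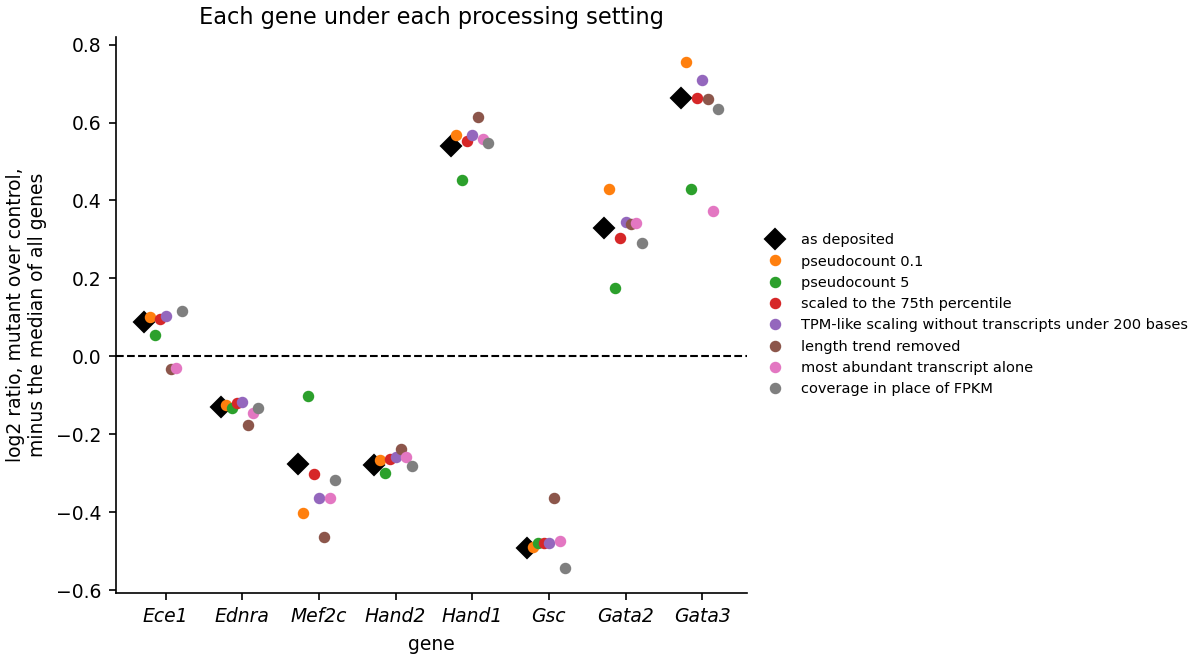
Log2 ratio of mutant over control minus the median of all genes for the 8 circuit genes over the filter; the diamond is the value as deposited and each coloured point an alternative setting. The points of Hand1 lie between 0.45 and 0.61 and those of Hand2 between -0.30 and -0.24, and Ece1 alone has points on both sides of the dashed line.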

How the data were processed

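RNA-seq of 1 pooled library per group was used. The authors deposited FPKM values and a coverage signal per transcript, per the file headers, with transcript length in bases; Cufflinks is named in the tables' naming, with version, aligner and strandedness not stated. Build mm 9 is named per the submitters' processing notes, but 72.1% of 45475 transcripts shared a start or end with GENCODE on GRCm38, so coordinates are given on GRCm38, 1-based. Lines displaced by spaces in the gene name (65 per library) were left out. FPKM was summed by gene symbol, and genes with a mean of 1 FPKM or more were compared at 2-fold (log2 ratio of 1). Fragments were approximated as coverage times length divided by 153 bases in the mutant and 156 in the control, the median product between 80 and 220 over transcripts longer than 1500 bases that are alone in their gene. Ratios carry exact Clopper-Pearson intervals and levels exact Poisson intervals; ratios between 2 genes carry exact conditional odds ratio intervals. The calculations (Python 3.11.15, SciPy 1.17.1) were tested on simulated data. The length trend is a running median over 501 genes. Circuit genes, lists, motifs and the rule for named genes (every circuit gene; of each list the 2-fold genes, the most abundant and up to 3 with the largest log2 ratios) were chosen with earlier results of these data known. Values of some list genes that this rule or the marker lists would name are not reported here.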

Additional observations from a re-analysis of the deposited data

How the results depend on the processing

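The circuit count of 0 genes past 2-fold was the same under all 10 alternatives. It could hardly change, since the log2 ratios ran between -0.62 and 0.53 as deposited and several settings shift all genes alike. With 2.13% of all genes past 2-fold as deposited, a count of 0 among so few genes says little about them. The median log2 ratio of the circuit genes was -0.15 as deposited, -0.021 once centred, -0.022 with 75th percentile scaling, -0.019 from coverage (an alternative chosen after seeing the data), 0.10 with TPM-like scaling, which moves the median of all genes to 0.11, -0.043 with no filter, when Edn1 enters, and -0.24 with the most abundant transcript alone, where all genes had -0.15. The number of all genes past 2-fold was 491 (179 higher, 312 lower) with a pseudocount of 0.1, 92 (36 and 56) with a pseudocount of 5 and 142 (54 and 88) at a mean FPKM of 5 or more. TPM-like scaling gave 195 higher and removal of the length trend 106 lower. As deposited, Ece1 had a log2 ratio of -0.04, and 0.21 with TPM-like scaling. No paired analysis was possible because each group has 1 library. Edn1, at about 28 and 25 fragments, is limited by depth. No replicate could be left out.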

Other observations

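Close to Gata3 lies 4930412O13Rik, chosen after its values were seen. It is annotated on the strand opposite Gata3, as a long noncoding RNA in RefSeq and as protein coding in GENCODE. In the deposited tables it extends over 9881246 to 9886767 on chromosome 2, with its near end 2646 bases from the Gata3 start. It stood at 2.57 FPKM in the mutant and 0.816 FPKM in the control, on about 285 and 82 fragments, a ratio of 3.15 (2.46 to 4.07) and a log2 ratio of 0.97. The GENCODE gene Gata3 reaches across this locus, and with strandedness not stated, reads of the overlapping genes cannot be told apart. Its neighbour 9230102O04Rik, annotated on the strand of Gata3, stood at 0.329 FPKM in the mutant and 0.433 FPKM in the control, on about 6.66 and 7.97 fragments.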
